A study of Mus musculus with 2 samples.

Results

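The 40 genes described here carry glucose from the cell surface to lactate or into the mitochondrion: glucose carriers, the enzymes of glycolysis with their regulators, lactate dehydrogenase, monocarboxylate and pyruvate carriers, and the pyruvate dehydrogenase complex with its kinases. They were listed by name from what their products do, with earlier results of these data known. All 40 were found among the 43346 mouse gene rows, of which 21461 are nuclear protein-coding genes. The samples were hearts of mouse embryos of strain B6NCrl at embryonic day 12.5 (E12.5), with tissue of male and female embryos pooled. Input to each library was 10 ng of RNA, size-selected above 200 nt, to which ERCC spike-in RNAs had been added. They are called biological replicates in their labels but cite the same donor record, so the spread between them may be partly technical. Replicate 1 held 34751234 estimated reads and replicate 2 held 31847875. The design holds 1 group and no contrast, 2 libraries allow no exact sign-test p below 0.5, and no p-value is given. Levels are in TPM, the share of all transcripts that belongs to a gene, which is scaled by transcript length, so that levels of different genes can be set side by side; errors are the SD over the 2 libraries.

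Glycolysis splits glucose into pyruvate in the cytosol and yields ATP without oxygen. Most of its steps can be catalysed by several isozymes, each encoded by its own gene and typical of different tissues, and some of these genes make several enzyme forms by alternative splicing. Pyruvate is then either reduced to lactate and exported, or imported into the mitochondrion and oxidised by the pyruvate dehydrogenase complex; the embryonic heart is known for a larger use of glucose and lactate than the adult heart, which relies mainly on fatty acids.

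The point at which splicing chooses between enzyme forms is best seen in pyruvate kinase, the last enzyme of glycolysis. Transcripts of Pkm include either of a pair of mutually exclusive exons on mm10 chromosome 9, plus strand. The upstream exon, chr9:59675029-59675195, gives the M1 form, a constitutively active enzyme typical of adult muscle and brain; the downstream exon, chr9:59675568-59675734, gives the M2 form, a regulated enzyme typical of embryonic and dividing cells. Both exons have 167 bases, of which 103 are identical (61.7%). They are shown because the ratio of the forms, given further on, rests on telling them apart; capitals mark the bases that differ.
M1 exon: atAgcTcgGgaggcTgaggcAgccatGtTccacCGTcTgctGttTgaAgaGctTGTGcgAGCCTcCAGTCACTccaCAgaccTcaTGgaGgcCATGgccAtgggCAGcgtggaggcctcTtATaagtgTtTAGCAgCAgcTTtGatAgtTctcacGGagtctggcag
M2 exon: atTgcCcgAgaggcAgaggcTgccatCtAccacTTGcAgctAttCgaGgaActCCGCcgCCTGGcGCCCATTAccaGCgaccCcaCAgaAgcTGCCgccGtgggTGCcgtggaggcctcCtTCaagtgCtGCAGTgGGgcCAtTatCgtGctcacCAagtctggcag
The sequences shown here and below are stretches of GENCODE M21 transcripts, on the same genome build as the deposited tables. All are coding except that of Gapdh-208, a transcript annotated without a coding region.

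The 40 genes, chosen with earlier results of these data known, stood high in the heart transcriptome. Their median level was 163 TPM, against 3.64 TPM over the 21461 nuclear protein-coding genes and 18.9 TPM over the 12344 of these that were detected, meaning that each library gave them at least 1 TPM. Of the 40 genes 39 were detected, against 57.5% of nuclear protein-coding genes. The exception was Hk3, a hexokinase typical of leukocytes. At least 10 TPM in both libraries was reached by 32 of them, against 38.1% of nuclear protein-coding genes. At least 100 TPM was reached by 24, against 6.31%, and 1000 TPM by 6, against 0.401%. The same 6 genes were among the 100 highest nuclear protein-coding genes, and 23 were among the 1000 highest. The 40 genes summed to 1.77% of all TPM in replicate 1 and 1.78% in replicate 2. In bulk tissue a lower share of cells of a type and less RNA per cell cannot be told apart, which holds for every level below.

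**Figure D1:**
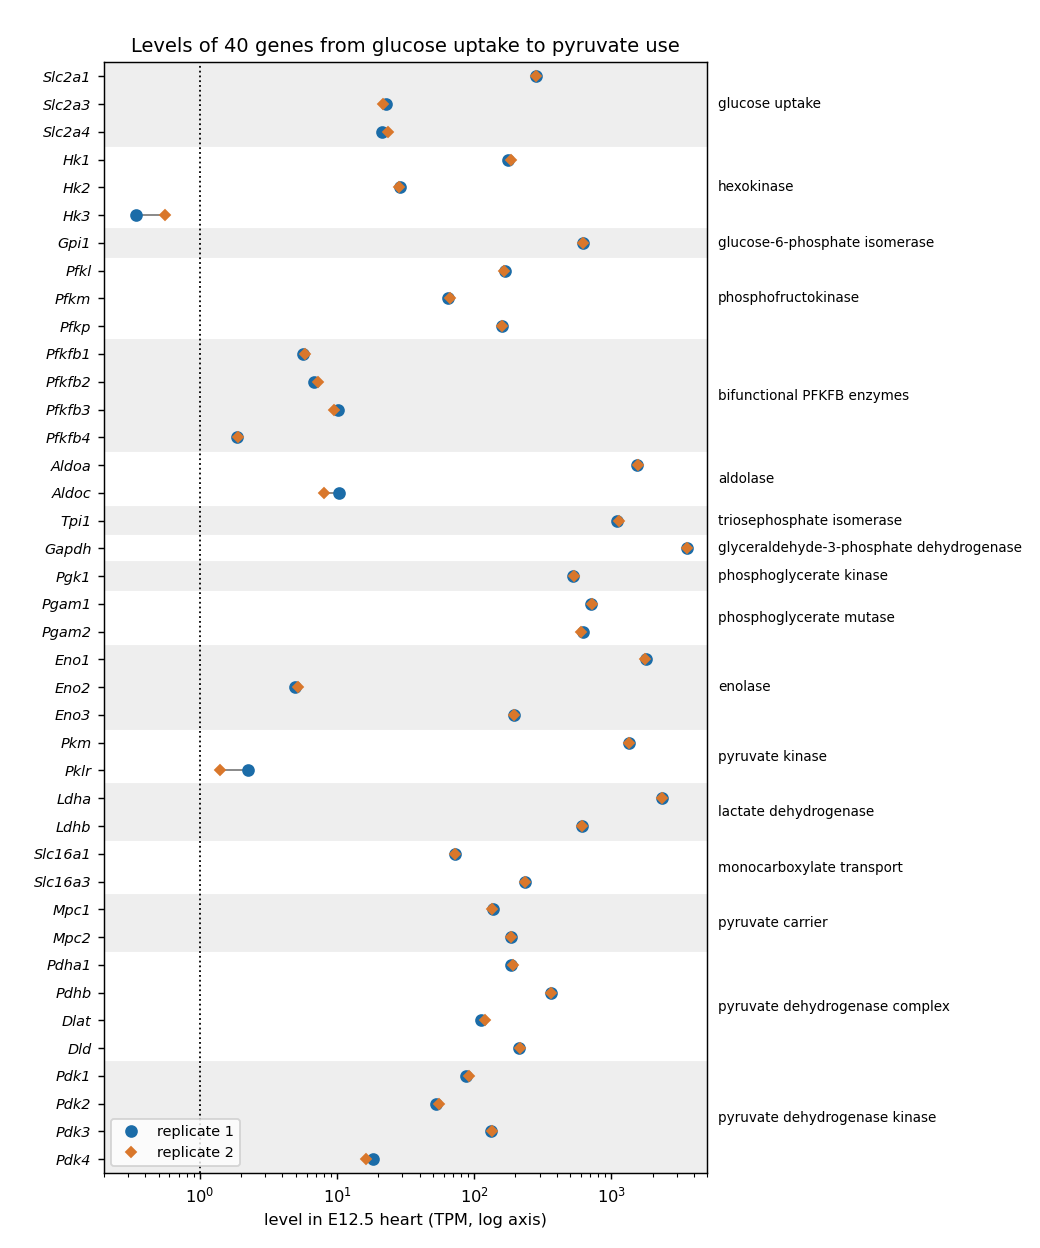
Level of each of the 40 genes in TPM (log axis), ordered by step from glucose uptake to the pyruvate dehydrogenase kinases; circles are replicate 1, diamonds replicate 2, and the dotted line is 1 TPM. Gapdh, Ldha, Eno1, Aldoa, Pkm and Tpi1 lie above 1000 TPM and only Hk3 lies left of the line in both libraries.

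The summed level of the isozymes differed widely between steps. The highest sums were 3567 ± 32.6 TPM for glyceraldehyde-3-phosphate dehydrogenase, 2953 ± 13.7 TPM for lactate dehydrogenase and 1972 ± 23.0 TPM for enolase; the first of these is 1265 ± 30.9 TPM on coding transcripts, as given further on. Aldolase summed to 1562 ± 21.9 TPM, pyruvate kinase to 1352 ± 2.95 TPM, phosphoglycerate mutase to 1330 ± 3.02 TPM and triosephosphate isomerase to 1124 ± 25.3 TPM. Glucose-6-phosphate isomerase, at 622 ± 0.969 TPM, and phosphoglycerate kinase, at 529.6 ± 7.9 TPM, were below these. Sums were lower at several steps that take up or commit glucose, with 327 ± 0.255 TPM for the 3 glucose carriers, 210 ± 6.29 TPM for the 3 hexokinases and 392 ± 1.03 TPM for the 3 phosphofructokinases. The 4 bifunctional enzymes that set fructose 2,6-bisphosphate, the activator of phosphofructokinase, were lowest with 24.6 ± 0.0354 TPM in all. The pyruvate dehydrogenase complex, with 4 subunit genes, summed to 881 ± 10.2 TPM, and the pyruvate carrier, with 2, to 321 ± 2.34 TPM. These are RNA levels, and enzymes differ in how much protein and activity comes from each transcript.

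Glucose uptake was led by Slc2a1 (ENSMUSG00000028645.6; chromosome 4, 119108711 to 119137983, plus strand), which encodes the basal glucose carrier of the fetal heart. It had 283 TPM in replicate 1 and 282 TPM in replicate 2, and took 86.4 ± 0.277% of the TPM of the 3 carriers. Slc2a4, which encodes the insulin-responsive carrier that prevails in adult heart and skeletal muscle, had 21.1 and 23.4 TPM. Slc2a3, which encodes a high-affinity carrier typical of neurons and the early embryo, had 22.6 and 21.6 TPM. Slc2a1 stood 12.7 ± 0.959-fold above Slc2a4, without overlap. Slc2a4 and Slc2a3 overlapped, each being higher than the other in 1 library.

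Hexokinase traps glucose in the cell as glucose 6-phosphate. Hk1 (ENSMUSG00000037012.14; chromosome 10, 62268855 to 62379908, minus strand), the broadly expressed form, had 176 and 185 TPM, or 86.2 ± 0.442% of the step. Hk2, the form typical of insulin-sensitive muscle, had 28.7 and 28.4 TPM. Hk3 had 0.34 TPM from 23 reads in replicate 1 and 0.56 TPM from 30 reads in replicate 2; its exons overlap those of Unc5a on the opposite strand by up to 34 bp, a gene with 2.36 and 3.44 TPM. Hk1 exceeded Hk2 6.33 ± 0.269-fold in TPM.

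Transcript tables resolved hexokinase further. Hk1-202 took 67.2% and 66.1% of Hk1 TPM, and Hk1-201 took 29.4% and 28.0%; the 2 transcripts start with different coding exons. The first coding exon of Hk1-202 and that of Hk2-201, the coding transcript of Hk2, both have 63 bases and encode the stretch by which these hexokinases bind the outer membrane of mitochondria. They are shown with the bases that differ between them in capitals; 68.3% are identical. In the sequence of Hk1-201, which begins with other amino acids, capitals mark the second coding exon. Hk1-202 lies at chr10:62340013-62340075 and Hk2-201 at chr6:82773918-82773980, both on the minus strand; the 75 bases of Hk1-201 come from the ends of chr10:62353058-62358362, minus strand, with an intron between them.
Hk1-202: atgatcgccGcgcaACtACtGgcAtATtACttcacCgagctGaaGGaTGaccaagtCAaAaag
Hk2-201: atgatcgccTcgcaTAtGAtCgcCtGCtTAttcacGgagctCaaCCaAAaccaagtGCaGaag
Hk1-201: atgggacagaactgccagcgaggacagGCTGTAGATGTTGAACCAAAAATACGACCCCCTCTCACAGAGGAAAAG

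The level of Hk2 rested in part on a second transcript. Hk2-202, a transcript of 594 nt annotated as a processed transcript without a coding region, held 44.9% and 42.4% of Hk2 TPM but 6.93% of its reads in replicate 1, since TPM divides by its short length. On coding transcripts alone Hk2 had 15.8 and 16.4 TPM. Hk1 then exceeded Hk2 11.1 ± 0.0994-fold.

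Glucose-6-phosphate isomerase, which makes fructose 6-phosphate, is encoded by Gpi1 alone. It had 622 and 623 TPM, nearly all of it (99.1%) on Gpi1-201. Its level overlapped that of Pgam2, a gene of a later step with 622 and 601 TPM.

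Phosphofructokinase commits the sugar to glycolysis and works as a tetramer that can mix subunits. No subunit held a majority. Pfkl, the liver-type subunit (ENSMUSG00000020277.9; chromosome 10, 77986947 to 78010083, minus strand), had 169 and 164 TPM, and Pfkp, the platelet-type subunit (ENSMUSG00000021196.9; chromosome 13, 6579768 to 6648777, minus strand), had 159 and 161 TPM. Pfkm, the muscle-type subunit that prevails in adult striated muscle, had 64.8 and 66.3 TPM. Pfkl and Pfkp differed by 1.04 ± 0.0302-fold, a gap of 6.52 TPM that was nevertheless larger than the spread of either gene. Pfkp stood 2.44 ± 0.0183-fold above Pfkm. Exons of Pfkp overlap those of Pitrm1 on the opposite strand by up to 748 bp, and Pitrm1 had 63.4 and 61.4 TPM; the labels and notes do not state strand use, so their reads may be mixed.

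The order of the subunits was kept on coding transcripts, and the gap widened. Coding transcripts held 72.4 ± 2.38% of Pfkp TPM and 99.2 ± 0.0469% of Pfkl TPM, which put Pfkl 1.43 ± 0.00624-fold above Pfkp. Pfkm divided its TPM between Pfkm-202, with 53.0% and 50.5%, and Pfkm-201, with 47.0% and 49.5%. Both are annotated as protein-coding, with 2816 nt for Pfkm-202 and 2880 nt for Pfkm-201. With a posterior SD of 243 and 233 reads on about equal read numbers, these transcripts of Pfkm were not told apart in level.

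Like Pkm, Pfkp has a pair of alternative coding exons of equal length. Pfkp-201, with 50.1% and 48.1% of Pfkp TPM, includes chr13:6593101-6593253, and Pfkp-207, with 23.7% and 22.3%, includes chr13:6597859-6598011 in its place, both on the minus strand. The exons have 153 bases, so that either keeps the reading frame, and 58.8% of the bases are identical; capitals mark the bases that differ. Pfkp-201 was the higher of the pair in both libraries.
Pfkp-201: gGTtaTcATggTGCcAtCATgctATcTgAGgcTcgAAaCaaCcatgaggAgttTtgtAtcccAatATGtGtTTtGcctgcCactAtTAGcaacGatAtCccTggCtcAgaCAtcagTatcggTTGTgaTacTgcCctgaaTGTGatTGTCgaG
Pfkp-207: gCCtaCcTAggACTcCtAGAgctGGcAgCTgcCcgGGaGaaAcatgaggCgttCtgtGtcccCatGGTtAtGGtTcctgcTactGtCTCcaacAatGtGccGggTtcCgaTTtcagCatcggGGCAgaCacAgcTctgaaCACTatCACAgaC

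The 4 bifunctional enzymes make and remove fructose 2,6-bisphosphate. Pfkfb3, the form with the strongest kinase activity, had 10.2 and 9.54 TPM, or 40.2 ± 1.93% of the step. Pfkfb2, known as the heart form in adult animals, had 6.85 and 7.24 TPM. Pfkfb1, the liver and muscle form, had 5.65 and 5.85 TPM, and Pfkfb4, the testis form, 1.86 and 1.91 TPM. The order Pfkfb3, Pfkfb2, Pfkfb1 and Pfkfb4 was the same in both libraries, with no overlap.

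That order depended in part on noncoding transcripts. The leading transcript of Pfkfb2 was Pfkfb2-206, with 32.2% and 31.0% of its TPM, which is annotated as a target of nonsense-mediated decay, and coding transcripts held 48.5% and 56.2%. On coding transcripts alone Pfkfb1 exceeded Pfkfb2 by 1.17 ± 0.00521-fold within each library. Their coding levels, 3.87 and 4.76 TPM for Pfkfb1 and 3.33 and 4.07 TPM for Pfkfb2, overlapped between libraries. The order of these low genes is therefore not firm. Exons of both genes overlap genes on the opposite strand: Yod1 for Pfkfb2, with 8.09 and 7.18 TPM, and Apex2 for Pfkfb1, with 11.8 and 11.7 TPM.

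**Figure D2:**
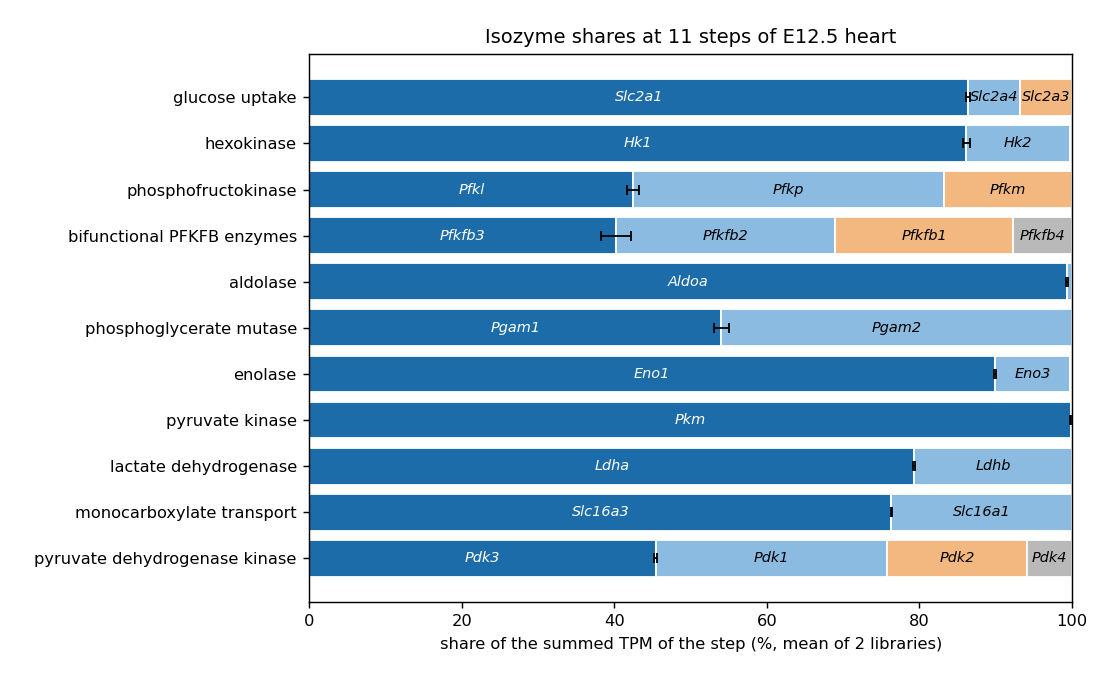
Share of each isozyme in the summed TPM of its step (percent, mean of 2 libraries) for the 11 steps with several genes; the darkest segment is the leading gene, and the error bar at its edge is the SD over the 2 libraries. Aldoa and Pkm fill nearly the whole bar, and Pfkl, Pfkfb3 and Pdk3 hold less than 50%. Hk3, Aldoc, Eno2 and Pklr are too small to label.

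Aldolase, which splits fructose 1,6-bisphosphate, came almost wholly from Aldoa (ENSMUSG00000030695.9; chromosome 7, 126795234 to 126800751, minus strand), the muscle-type gene. It had 1536 and 1569 TPM, or 99.4 ± 0.112% of the step. Aldoc, the brain-type gene, had 10.4 and 8.09 TPM. Of the Aldoa TPM 90.7% was on Aldoa-201 in each library. Triosephosphate isomerase, encoded by Tpi1 alone, interconverts the pair of triose phosphates and had 1106 and 1142 TPM.

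Gapdh (ENSMUSG00000057666.14; chromosome 6, 125161715 to 125166467, minus strand), which oxidises glyceraldehyde 3-phosphate, was the highest of the 40 genes. It had 3590 TPM in replicate 1 and 3544 TPM in replicate 2. Its TPM was not led by a coding transcript. Gapdh-208, a transcript of 483 nt annotated without a coding region, held 63.5% and 64.3% of the TPM, and Gapdh-203, which encodes the enzyme, held 35.4% and 34.4%. The authors' estimate assigned 20672 reads to Gapdh-208 in replicate 1, with a posterior SD of 143 reads, and 18678 in replicate 2, with a posterior SD of 137. These are 33.7% and 34.4% of Gapdh reads, a smaller share than in TPM, which divides by length.

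Within the coding region of Gapdh-203 there are 65 bases, chr6:125163139-125163203 on the minus strand, that Gapdh-208 skips. They are shown in capitals with 30 bases on either side, followed by the join in Gapdh-208, because the allocation of reads between the transcripts rests on such differences.
Gapdh-203: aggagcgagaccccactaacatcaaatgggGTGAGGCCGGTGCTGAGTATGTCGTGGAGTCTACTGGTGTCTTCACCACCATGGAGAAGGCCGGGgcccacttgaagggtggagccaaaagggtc
Gapdh-208: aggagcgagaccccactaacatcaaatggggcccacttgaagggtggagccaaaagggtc

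On coding transcripts alone Gapdh averaged 1265 ± 30.9 TPM and ranked 5 of the 40 genes. Ldha, at 2330.0 ± 15.5 TPM, Eno1, Aldoa and Pkm then stood above it. The sum of the 40 genes was 15127 ± 15.6 TPM on coding transcripts, against 17769 ± 27.9 TPM on all transcripts. Gapdh also has many retrocopies in the mouse genome: 159 annotated pseudogenes matched its transcripts at 90% identity or more over at least 80% of their length. Their reads came to 6.73% of Gapdh reads in replicate 1 and 6.82% in replicate 2.

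Phosphoglycerate kinase, which makes ATP, came from the X-linked Pgk1. It had 524 and 535 TPM. Copies of Pgk1 annotated as pseudogenes, mainly Pgk1-rs7, held reads equal to 10.8% and 9.16% of its own, so its level is less certain than that of most others. The posterior SD of its count was 0.864% of the count in replicate 1.

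Phosphoglycerate mutase moves the phosphate to the neighbouring carbon. Pgam1 (ENSMUSG00000011752.6; chromosome 19, 41911923 to 41918660, plus strand), the broadly expressed brain-type gene, had 710.1 and 727 TPM. Pgam2 (ENSMUSG00000020475.3; chromosome 11, 5801640 to 5803733, minus strand), the muscle-type gene, had 622 and 601 TPM. Pgam1 exceeded Pgam2 1.18 ± 0.0481-fold without overlap, and held 54.0 ± 1.02% of the step. Each gene has a single transcript in the tables, and pseudogenes of Pgam1, mainly Pgam1-ps2, held reads equal to 1.6% and 1.61% of its own.

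Enolase, which makes phosphoenolpyruvate, was led by Eno1 (ENSMUSG00000063524.9; chromosome 4, 150236721 to 150248879, plus strand), the broadly expressed alpha gene. It had 1789 and 1757 TPM, or 89.9 ± 0.126% of the step. Eno3, the beta gene of adult striated muscle, had 194 TPM in each library. Eno2, the gamma gene of neurons, had 4.93 and 5.19 TPM. Eno1 exceeded Eno3 9.13 ± 0.118-fold. Pseudogenes of Eno1, mainly Gm4735, held reads equal to 1.21% and 1.4% of its own. Eno3 was divided between coding transcripts, with 73.0% and 75.5% of its TPM on Eno3-201 and 18.9% and 20.2% on Eno3-202. Coding transcripts held 47.3% and 49.5% of Eno2 TPM, and its leading transcript was annotated as a retained intron.

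Pyruvate kinase came from Pkm (ENSMUSG00000032294.12; chromosome 9, 59656368 to 59679375, plus strand) at 1352 and 1349 TPM, or 99.9 ± 0.0436% of the step. Pkm-202, with the M1 exon shown above, held 57.4% of Pkm TPM in replicate 1 and 57.2% in replicate 2. Pkm-201, with the M2 exon, held 42.6% and 42.8%. The posterior SD of the reads assigned to Pkm-202 was 376 of 42756 in replicate 1 and 323 of 38429 in replicate 2, smaller than the gap to the 31765 and 28769 reads of Pkm-201. The M1 form was thus the higher one in both libraries, by a margin larger than the spread between them, and neither form was minor. The assignment of exons is that of GENCODE M21, in which Pkm-202 has 2041 nt; the deposited tables, made with an earlier release, give it 2432 nt. Whether the earlier model of Pkm-202 has the same exons was not checked.

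Pklr, the pyruvate kinase gene of liver and red cells, had 2.24 TPM in replicate 1 and 1.40 TPM in replicate 2. Replicate 2 was lower than replicate 1 by 0.64 on the log2 scale (TPM + 0.1). Transcripts of liver were also lower in replicate 2: the 8 liver markers, among them albumin and alpha-fetoprotein, summed to 38.6 TPM in replicate 2 and 178 TPM in replicate 1, with all 8 lower in replicate 2. The 7 markers of primitive red cells summed to 30897 TPM in replicate 2 and 34431 TPM in replicate 1. Their part in the difference of Pklr was not tested. Exons of Pklr also overlap those of Hcn3 on the opposite strand by up to 711 bp, and Hcn3 had 0.37 TPM in replicate 2 and 0.53 TPM in replicate 1.

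**Figure D3:**
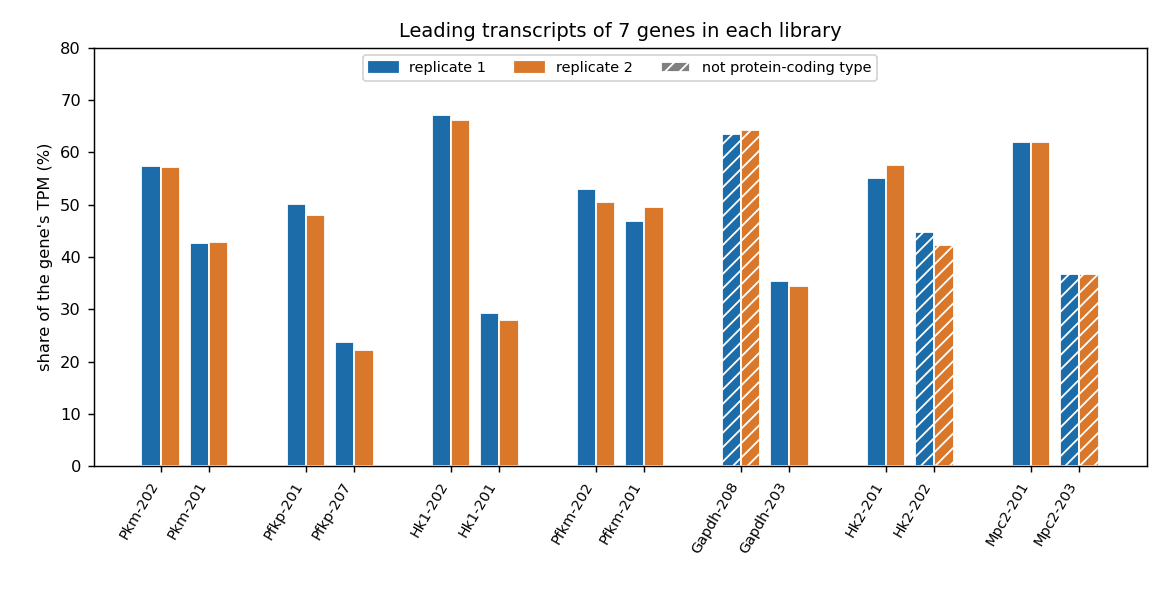
Share of 2 leading transcripts in the TPM of each of 7 genes (percent), with a bar for each library; hatched bars are transcripts annotated as a type that encodes no protein. Pkm-202 stands above Pkm-201 and Pfkp-201 above Pfkp-207 in both libraries, and the noncoding Gapdh-208 stands above Gapdh-203.

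Lactate dehydrogenase interconverts pyruvate and lactate and is a tetramer of A and B subunits. Ldha (ENSMUSG00000063229.10; chromosome 7, 46841475 to 46855627, plus strand), the A subunit typical of glycolytic muscle, had 2331 and 2353 TPM. Ldhb (ENSMUSG00000030246.7; chromosome 6, 142490249 to 142507957, minus strand), the B subunit that prevails in adult heart muscle, had 612 and 609 TPM. Ldha exceeded Ldhb 3.84 ± 0.0359-fold and held 79.3 ± 0.154% of the step. Nearly all TPM of either gene was on 1 coding transcript.

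Lactate and pyruvate cross the plasma membrane on monocarboxylate carriers. Slc16a3, whose product is the carrier typical of lactate-exporting cells, had 235 TPM in each library. Slc16a1, whose product carries lactate in either direction and is the main carrier of adult heart, had 73.0 and 72.7 TPM. Slc16a3 exceeded Slc16a1 3.23 ± 0.00389-fold. Slc16a1 has a single transcript in the tables, while Slc16a3 had 68.4% and 65.2% of its TPM on Slc16a3-201 and 17.4% and 21.4% on Slc16a3-202, both coding. Bsg, the chaperone that both carriers need at the membrane, was higher than either at 1054 and 1066 TPM.

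Entry of pyruvate into the mitochondrion needs both Mpc1 and Mpc2, the subunits of the pyruvate carrier. Mpc2 had 187 and 186 TPM and Mpc1 had 136 and 134 TPM, so that Mpc2 exceeded Mpc1 1.38 ± 0.0123-fold. That order turned round on coding transcripts. Mpc2-203, which is annotated without a coding region, held 36.9% and 36.8% of Mpc2 TPM, and without it Mpc1 exceeded Mpc2 1.16 ± 0.019-fold. In addition, the pseudogene Mpc1-ps held reads equal to 10.9% and 9.73% of those of Mpc1.

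The pyruvate dehydrogenase complex turns pyruvate into acetyl-CoA. Pdha1 and Pdhb encode the subunits of its first enzyme, which are needed in equal numbers in the protein. Pdhb had 365 and 360.3 TPM and Pdha1, on the X chromosome, had 185 and 193 TPM, a ratio of 1.92 ± 0.0746. Dlat, the core acetyltransferase, had 112 and 119 TPM. Dld, the dehydrogenase shared with other complexes, had 211 and 216 TPM, 1.84 ± 0.0457-fold above Dlat. Dlat-202, annotated without a coding region, held 27.0% and 29.0% of Dlat TPM. On coding transcripts Dld exceeded Dlat 2.62 ± 0.0249-fold.

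The complex is switched off by pyruvate dehydrogenase kinases. Pdk3 (ENSMUSG00000035232.8; X chromosome, 93764607 to 93832201, minus strand), whose product is the kinase least restrained by pyruvate, was highest with 132 and 136 TPM, or 45.4 ± 0.204% of the step. Pdk1, a target of hypoxia-inducible factor, had 86.6 and 92.3 TPM. Pdk2, the most widely expressed kinase, had 53.1 and 55.5 TPM. Pdk4, the kinase induced by fasting and fatty acids and prominent in adult heart, was lowest with 18.2 and 16.4 TPM. The 4 kinases kept this order in both libraries without overlap, and Pdk3 exceeded Pdk4 7.78 ± 0.723-fold. On coding transcripts Pdk3 exceeded Pdk1 2.02 ± 0.0087-fold, against 1.5 ± 0.0387-fold on all transcripts.

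Across the 11 steps with several genes, the leading gene was the same in both libraries. Among the 19 neighbours in the order of levels within a step, 1 pair overlapped between libraries, Slc2a4 and Slc2a3. In the order of all 40 genes, 7 of 39 neighbours overlapped. Apart from pairs already named, these were Pgam2 with Ldhb, Pdha1 with Mpc2, Mpc1 with Pdk3, Pfkfb3 with Aldoc, and Pfkfb4 with Pklr. Slc2a4, Hk2, Pfkm, Pfkfb1, Pfkfb2, Pgam2, Eno3, Ldhb, Slc16a1 and Pdk4 stood below another isozyme in both libraries. Each is described above as a form of muscle or adult heart. Of these, Pgam2 still held 46.0 ± 1.02% of its step. At any step, all genes but the leading gene stand below another isozyme. Slc2a3, Hk3, Pfkp, Pfkfb4, Aldoc, Eno2, Pklr, Pdk1 and Pdk2 also stood below in both libraries. None of these is described above as a form of muscle or adult heart. Other muscle forms did not stand below: Aldoa and Ldha led their steps and the M1 form led within Pkm. These genes were set side by side after their values were seen. No adult sample was analysed here, so no change with age was measured.

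The 40 genes had 260 transcripts in the tables, and 6 genes had a single one. Of the 32 genes at 10 TPM or more, 26 had at least 90% of their TPM on transcripts annotated as protein-coding, against 65.8% of nuclear protein-coding genes at that level. Gapdh alone was under 50%, against 7.01%, and Gapdh alone had a leading transcript of noncoding type, against 5.3%. Between 50% and 90% were Hk2, Mpc2, Dlat, Pfkp and Pdk1. The leading transcript was the same in both libraries for 27 of 27 genes with several transcripts, against 94.6%. Transcript levels are the authors' estimates from reads that mostly fit several transcripts; transcripts were not counted one by one.

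**Figure D4:**
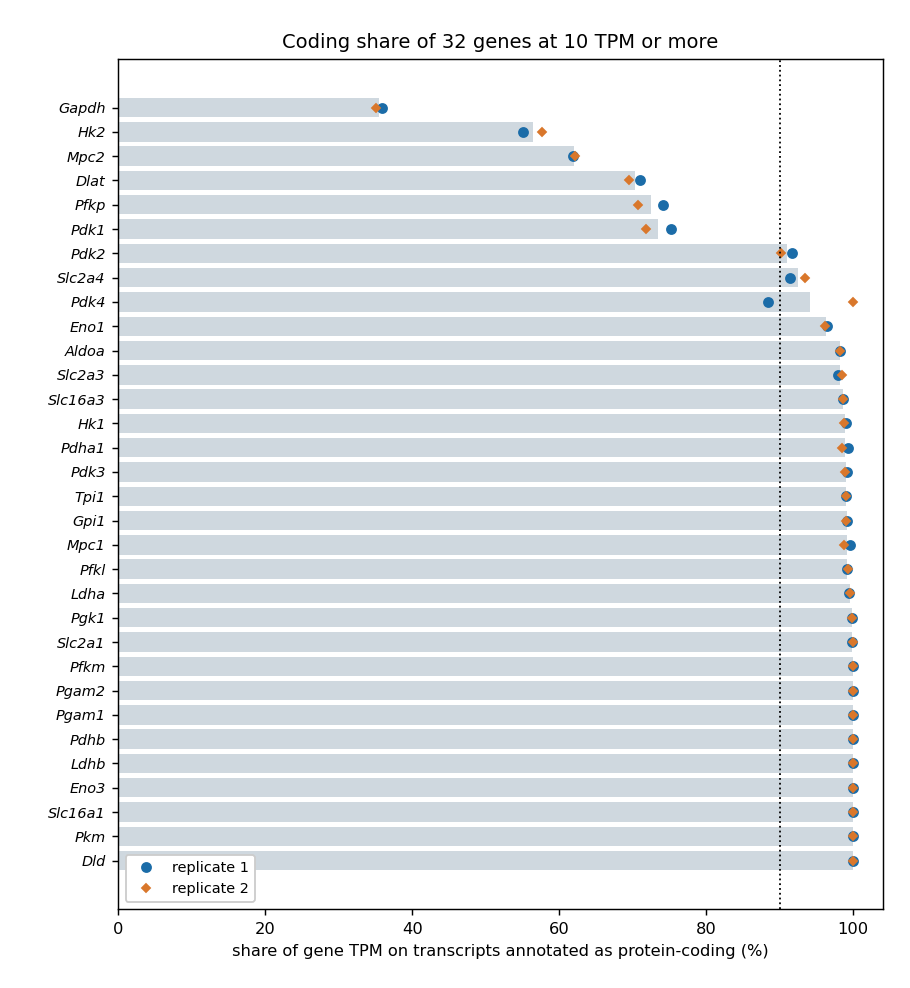
Share of each gene's TPM on transcripts annotated as protein-coding (percent) for the 32 genes at 10 TPM or more in both libraries; bars are the mean, circles replicate 1 and diamonds replicate 2, and the dotted line is 90%. Gapdh is lowest, and 26 bars reach the line.

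The 2 libraries gave close levels for these genes. Of the 40 genes 35 differed by less than 1.1-fold, and the median absolute difference was 0.04 on the log2 scale (TPM + 0.1), against 0.08 over 13529 nuclear protein-coding genes with a mean of at least 20 reads. Most of the 40 genes are high, where libraries differ least. A difference of 1.5-fold or more was seen in 2 of the 40 genes, against 3.61% of those 13529. Hk3 was higher in replicate 2, as were 1.56%, and Pklr was lower, as were 2.05%. Hk3 lay exactly at 1.5-fold, and 1 gene, Pklr, remained at that fold with TMM or DESeq2 scaling and 0 with a pseudocount of 1 TPM. Markers of macrophages and leukocytes, cells in which Hk3 is known to be expressed, summed to 35.3 TPM in replicate 2 and 38.7 TPM in replicate 1, with 2 of 6 higher in replicate 2 and none under 0.1 TPM; their part in the level of Hk3 was not tested. The next largest difference was that of Aldoc, 1.28-fold higher in replicate 1.

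**Figure D5:**
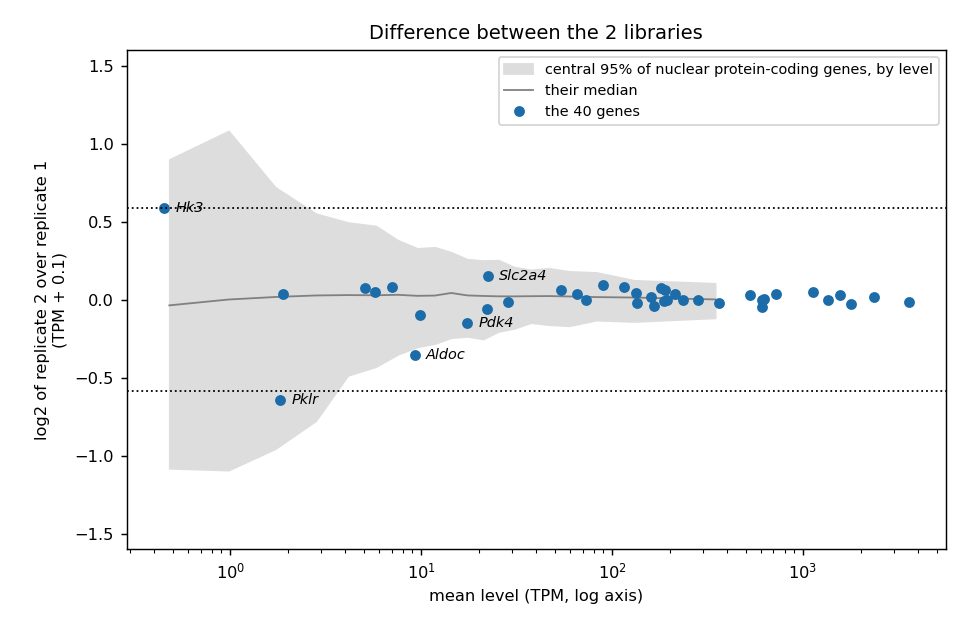
Log2 ratio of replicate 2 over replicate 1 (TPM + 0.1) against mean level (TPM, log axis); points are the 40 genes, the grey band holds the central 95% of nuclear protein-coding genes in 20 classes of level, and dotted lines mark a 1.5-fold difference. Pklr lies below the lower line, Hk3 on the upper one, and Aldoc just below the band; points beyond the right edge of the band belong to the highest class.

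All 7 heart muscle markers were detected at 10 TPM or more and summed to 20044 and 20118 TPM; Actc1 was highest, with 9860 and 9751 TPM, and Ryr2 lowest, with 14.9 and 16.5 TPM. Endothelial and endocardial markers summed to 268 and 282 TPM and mesenchyme markers to 1333 and 1297 TPM. Genes listed as skeletal muscle markers summed to 66.4 and 65.6 TPM, with 5 of 7 detected. Most of this sum was Ckm, with 41.5 and 41.9 TPM, and whether its RNA came from skeletal muscle was not tested. Mylpf had 12.3 and 13.3 TPM, Tnnt3 7.64 and 5.00 TPM, and Actn3 3.53 and 3.39 TPM. Myog had 1.00 and 1.74 TPM, Myod1 had 0.41 and 0.21 TPM, and Myf5 was under 0.1 TPM in both libraries. Neural markers summed to 33.3 and 31.6 TPM, with 4 of 6 detected. Both lists are given beside the muscle-type and neuron-type isozymes above, and their part in those levels was not tested.

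Of 40 further genes of the pathway that are not among the 40, 23 were detected, equal to the 57.5% of nuclear protein-coding genes. At least 10 TPM in both libraries was reached by 13, against 38.1% of nuclear protein-coding genes. Bsg has been given above. Pgm1, a phosphoglucomutase that links glucose 6-phosphate to glycogen, had 202 and 210 TPM, and Pgm2 had 16.8 and 17.0 TPM. Txnip, which limits glucose uptake, had 117 and 121 TPM. Bpgm, which makes 2,3-bisphosphoglycerate in red cells, had 68.4 and 62.2 TPM. Pdhx, the protein that anchors Dld in the pyruvate dehydrogenase complex, had 43.7 and 45.2 TPM, and Pdpr, a regulatory subunit of its phosphatase, had 13.3 and 14.7 TPM. Adpgk, a glucokinase that uses ADP, had 23.7 TPM in each library.

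The others at that level were G6pc3, a broadly expressed glucose-6-phosphatase, with 22.2 and 22.8 TPM; Pck2, the mitochondrial phosphoenolpyruvate carboxykinase, with 20.3 and 21.4 TPM; Slc2a8, an intracellular sugar carrier, with 16.1 and 16.3 TPM; Emb, a chaperone related to Bsg, with 16.2 and 15.8 TPM; and Pcx, pyruvate carboxylase, with 12.8 and 13.4 TPM. Among genes under that level, named after their values were seen, Pck1 had 0.16 and 0.07 TPM, Fbp1 had 0.18 TPM in replicate 1 and no read in replicate 2, and G6pc had no read in either library. In all, 4 of the 40 further genes were under 0.1 TPM in both libraries.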

How the data were processed

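Per the deposited notes, the authors aligned reads of the 2 libraries to mm10 and quantified genes and transcripts with GENCODE M4; the sources used here name no program and do not state strand use or ribosomal RNA removal. The deposited expected count estimates reads per feature, dividing shared reads. The deposited TPM is a length-scaled share of all features including spike-ins, the deposited FPKM is scaled by length and library size, and the deposited percent is a transcript's share in its gene. The authors' posterior SD of each count is used as a score of allocation uncertainty.

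Genes were matched by Ensembl ID to GENCODE M21 (42462 matched) on the same build; for Aldoa the row used is ENSMUSG00000030695.9. The members and lists were chosen with earlier results of these data known. All 40 members may be named, as may pathway genes at 10 TPM or more in both libraries; Pck1, Fbp1, G6pc and the cell type markers named were chosen after their values were seen. Rows naming no Ensembl gene took 3.69% of reads. Replicates differed beyond sampling noise (chi-square per gene 4.51 over 13529 genes) and were kept as 2. Isozyme shares, transcript shares, coding-transcript TPM and log2 ratios (pseudocount 0.1 TPM) were computed per library with Python 3.11.15, numpy 2.4.6 and pandas 2.3.3, and plots with matplotlib 3.10.9. Pseudogenes were matched with blastn 2.17.0. Expected counts were rounded for edgeR 4.0.16 TMM factors and DESeq2 1.42.0 size factors (R 4.3.3), used only as alternative scalings. Calls of a fold difference, detection and isozyme shares were tested on simulated gene counts. Allocation of reads among transcripts was not simulated. Alternatives covered thresholds, units, posterior means, lengths, pseudogene reads, coding transcripts and each library alone.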

Additional observations from a re-analysis of the deposited data

How the results depend on the processing

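With 1 group of 2 libraries, the SD rests on 2 values and an exact sign test cannot go below p = 0.5. No paired analysis was possible because there is 1 group, so no groups share replicate numbers; ratios between genes were formed within each library. The leading gene of all 11 steps was the same under posterior means, deposited lengths in place of effective lengths, and coding transcripts only. It was also the same with pseudogene reads added, which can change only steps with a matched pseudogene that held reads. With each library alone it could not differ, because both libraries have the same leading gene. Leading shares nevertheless moved by more than 1 SD in 7 of 11 steps with coding transcripts only. They also did so in 5 of 11 steps with posterior means and in 5 of 11 with deposited lengths. The median level of the 40 genes, 163 TPM, moved to 224 TPM when TPM was rescaled over nuclear protein-coding genes without globins, 161 TPM with posterior means, 110.1 in FPKM and 166 TPM over the genes at 1 TPM or more, and was 162 to 164 TPM with 1 library left out. The 2 genes that differed 1.5-fold between libraries became 0 at 2-fold, 0 with a pseudocount of 1, 1 with TMM factors and 1 with DESeq2 size factors. On coding transcripts only, log2 ratios turned to -0.22 for Pfkfb2 over Pfkfb1 and -0.21 for Mpc2 over Mpc1, which follows from leaving out noncoding transcripts; that of Slc2a4 over Slc2a3, 0.01 on all transcripts and within its spread, took either sign across the alternatives. Alternatives for ratios of neighbours and subunits were chosen after seeing the data.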
